A study of Mus musculus with 12 samples.

Results

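Genes that mark the acid-secreting parietal cells and the enzyme-secreting chief cells of the gastric glands were followed across 12 arrays of mouse stomach and colon. They were chosen by name, as Atp4a, Atp4b, Kcne2, Kcnq1 and Aqp4 for parietal cells and Pgc, Pga5, Cblif, Lipf and Chia1 for chief cells. All 10 had a probe set that names the gene alone, with 1 probe set each except Aqp4, which had 2, and they were 10 of 11807 genes so represented. The study compared Spdef genotypes in whole stomach and whole colon. Spdef is an ETS family transcription factor known from mucus-producing cells. Animals were 16 weeks old, of strain C57BL/6 and untreated. The 6 groups of 2 arrays each were knockout (KO), heterozygous (HET) and wild-type (WT) colon, and KO, HET and WT stomach. Which part of Spdef was deleted, which sex the mice had and whether both arrays of a group represent different mice are not stated in the labels. The p-values below therefore reflect array-to-array spread, which may be technical.

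Parietal cells acidify the stomach with an H+/K+ ATPase that exchanges protons for potassium, and a potassium channel in the same apical membrane returns the potassium to the gland lumen. Chief cells lie deeper in the gland and secrete pepsinogens, which acid converts to pepsin. Both cell types belong to the oxyntic glands of the stomach body, and the colon epithelium contains neither.

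Promoter sequence was available in RefSeq (mouse build GRCm38.p6) for 6 of the genes, Atp4a, Kcne2, Pgc, Cblif, Lipf and Chia1. The 250 bases before the transcription start are shown for the 4 of these genes whose colon and stomach levels lay furthest apart, to set their regulatory sequence beside those levels. Capitals mark matches to 3 motifs searched on both strands: TATAAA, the TATA box; the word GATA with an A or T before it and an A or G after it, the element of the GATA factors; and AAGGTCA, the core of the element of estrogen-related receptors. None of these motifs overlapped another in the windows shown. All 4 windows lie on the plus strand, at chr7:30711959-30712208 for Atp4a, chr17:47726592-47726841 for Pgc, chr19:11747309-11747558 for Cblif and chr3:106113132-106113381 for Chia1.

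Atp4a: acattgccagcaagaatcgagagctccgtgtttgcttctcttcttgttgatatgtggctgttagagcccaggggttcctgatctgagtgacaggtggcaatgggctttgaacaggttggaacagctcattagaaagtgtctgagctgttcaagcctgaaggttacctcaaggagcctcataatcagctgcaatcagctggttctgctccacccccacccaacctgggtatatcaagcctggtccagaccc

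Pgc: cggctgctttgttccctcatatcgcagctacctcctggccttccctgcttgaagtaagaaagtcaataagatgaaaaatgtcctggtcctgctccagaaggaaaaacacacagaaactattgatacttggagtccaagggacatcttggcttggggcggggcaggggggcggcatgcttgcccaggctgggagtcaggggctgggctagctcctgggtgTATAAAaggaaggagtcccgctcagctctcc

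Cblif: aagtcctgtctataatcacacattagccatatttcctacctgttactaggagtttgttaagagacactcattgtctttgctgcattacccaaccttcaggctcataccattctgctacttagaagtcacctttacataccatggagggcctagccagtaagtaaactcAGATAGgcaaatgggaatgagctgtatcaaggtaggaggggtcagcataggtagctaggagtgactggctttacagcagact

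Chia1: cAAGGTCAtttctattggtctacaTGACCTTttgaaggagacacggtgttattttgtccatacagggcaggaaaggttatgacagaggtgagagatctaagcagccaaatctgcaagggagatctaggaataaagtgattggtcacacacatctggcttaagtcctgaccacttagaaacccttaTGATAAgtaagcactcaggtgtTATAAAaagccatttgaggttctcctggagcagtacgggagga

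The Atp4a window held no match. The Pgc window held TATAAA from 31 to 26 bases before the start, and the Chia1 window held it from 43 to 38 bases before. Cblif held AGATAG from 82 to 77 bases before the start, and Chia1 held TGATAA from 65 to 60 bases before. Chia1 also held AAGGTCA from 249 to 243 bases before the start and, on the other strand, from 226 to 220 bases before. Of 32851 RefSeq mouse promoter windows of this length, 12.4% held TATAAA, 26.5% held a GATA word and 4.08% held AAGGTCA. Among the 6 genes with a window, 2 held TATAAA, 3 held a GATA word (Cblif, Lipf and Chia1) and 1 held AAGGTCA. These matches describe the letters in the window and not binding.

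The deposited values were linear intensities with a trimmed mean of about 500.1 on every array, and every level given is quantile-normalized log2(intensity + 16), a scale on which a difference of 1 is close to a 2-fold change for bright genes. A gene entered the tests of a tissue when it reached the filter level of 6.53, the 40th percentile of the arrays, on at least 2 of the tissue's 6 arrays. This left 7858 genes in stomach, 7913 in colon and 8393 in either. Of the 10 genes, 9 passed in stomach (all but Lipf) and 3 passed in colon (Atp4b, Kcnq1 and Aqp4). The transcript of Spdef lay between 8.63 and 8.86 in KO, 8.94 and 9.06 in HET and 8.96 and 9.19 in WT stomach. In colon it lay at 9.08 and 9.25 in KO, 9.81 and 10.27 in HET, and 10.97 and 8.74 in WT, so that the array labelled colon WT 2 read below both KO arrays. The same array had a mean correlation with the other colon arrays of 0.888, against 0.931 to 0.956 for the other 5. Its mean level over 8 small intestine genes was 12.36, against 6.39 to 7.48 on the other colon arrays, and its mean over 6 colonocyte genes was 10.34, against 12.68 to 13.45. Xist, transcribed from the inactive X chromosome of female cells, lay at 7.49 in stomach KO 2 and 5.70 in colon KO 2, and between 12.34 and 12.86 on the other 10 arrays. In stomach the submitters' notes name RMA for the KO arrays alone and MAS5 for the rest, so by those notes processing and genotype cannot be told apart there. In the deposited columns the trimmed mean lay between 500.07 and 500.09 on all 12 arrays, and the values of each were linear. Scaling to a common trimmed mean can give this whichever method came before it, so it does not show how the arrays were processed. Whether the RMA note is right was not settled.

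**Figure D1:**
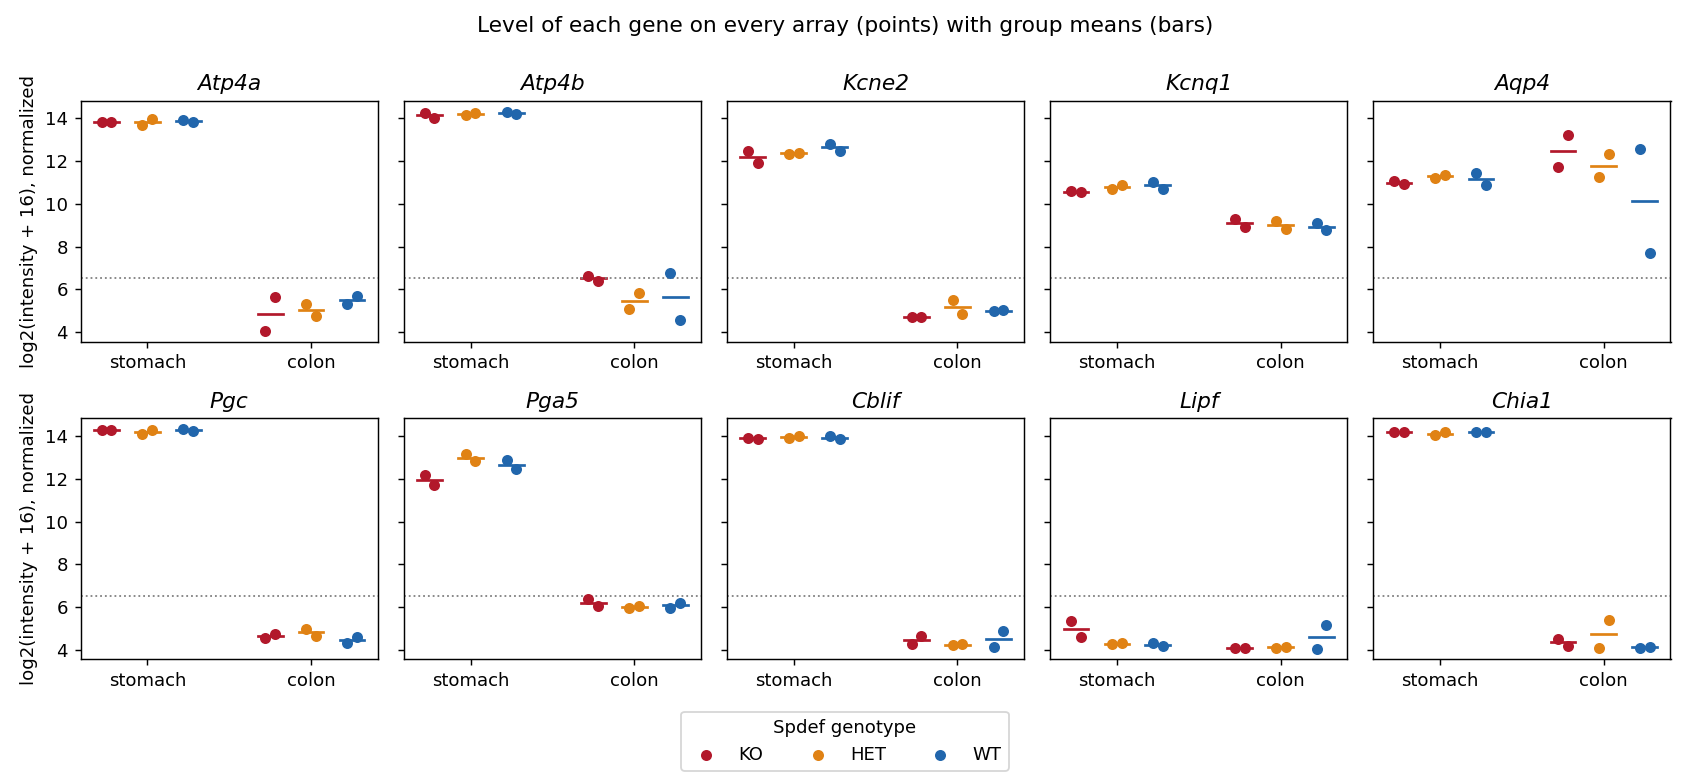
Normalized level of the 10 genes, log2(intensity + 16), on each of the 12 arrays (points) with group means (bars) for KO, HET and WT in stomach and colon. The dotted line is the filter level of 6.53. In stomach 9 genes lie above it on all arrays and Lipf below it, and in colon Kcnq1 and Aqp4 lie above it on all arrays.

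The colon arrays were set against the stomach arrays of the same genotype. Of the 9 tested genes, 8 were lower in colon and past the threshold in each of KO, HET and WT. The exception in each genotype was Aqp4. Of all genes tested, 12.4% were lower and past the threshold in KO, 12% in HET and 16.4% in WT. In whole tissue, fewer cells of a type and less RNA per cell cannot be told apart.

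Atp4a, the catalytic subunit of the H+/K+ ATPase, lay below the filter level on every colon array and far above it on every stomach array. In colon its level was 4.08 and 5.65 in KO, 5.31 and 4.74 in HET, and 5.34 and 5.71 in WT. In stomach it was 13.82 and 13.82 in KO, 13.67 and 13.95 in HET, and 13.89 and 13.81 in WT. Because the colon means lay below the filter level, the difference is given as a bound against that level: Atp4a was at least 156.5-fold lower in KO colon (limma, adjusted p = 7.69e-07), at least 155.2-fold lower in HET colon and at least 159.5-fold lower in WT colon.

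Atp4b encodes the glycosylated beta subunit, which the pump needs to reach the membrane. Its colon level was 6.64 and 6.40 in KO, 5.08 and 5.85 in HET, and 6.75 and 4.58 in WT, and reached the filter level on 2 arrays, KO 1 and WT 1. Its stomach level was 14.21 and 14.02 in KO, 14.13 and 14.21 in HET, and 14.27 and 14.19 in WT, with no overlap between the tissues. The colon group means lay below the filter level, and the bounds were at least 192.2-fold lower in KO, at least 199.8-fold in HET and at least 207.8-fold in WT colon (limma, adjusted p = 1.47e-05, 5.99e-06 and 6.50e-06).

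Kcnq1, the pore subunit of the apical potassium channel, was the 1 parietal gene that was both measured above the filter level on all 12 arrays and lower in colon. Its level was 9.26 and 8.92 in KO, 9.19 and 8.81 in HET, and 9.08 and 8.75 in WT colon. In stomach it was 10.60 and 10.53 in KO, 10.67 and 10.89 in HET, and 11.03 and 10.69 in WT. The tissues did not overlap in any genotype. The log2 difference was -1.47 in KO (2.78-fold lower in colon, limma, adjusted p = 0.00105), -1.78 in HET (adjusted p = 0.000346) and -1.94 in WT (3.85-fold, adjusted p = 0.000193).

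Kcne2, the accessory subunit that keeps the channel open in acid, did not share that colon signal. Its colon level stayed between 4.70 and 5.48, below the filter level on every array. In stomach it was 12.45 and 11.90 in KO, 12.32 and 12.38 in HET, and 12.80 and 12.47 in WT. The bounds were at least 50.1-fold lower in KO, at least 56.5-fold in HET and at least 68.7-fold in WT colon. Of this pair of subunits, Kcnq1 alone was above the filter level in colon.

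Aqp4, the water channel of the basolateral parietal cell membrane, also known from the surface epithelium of the colon, was the exception. In colon its level was 11.69 and 13.21 in KO, 11.24 and 12.31 in HET, and 12.57 and 7.71 in WT. In stomach it was 11.06 and 10.91 in KO, 11.19 and 11.35 in HET, and 11.44 and 10.87 in WT. Both KO colon arrays lay above both KO stomach arrays, while in HET and WT the tissues overlapped. On the dimmer Aqp4 probe set the HET colon arrays also lay above the HET stomach arrays, at 9.69 and 11.11 against 9.24 and 9.33. The log2 difference was 1.47 (SE 1.22) in KO, 0.50 in HET and -1.02 in WT, none past the threshold (limma, adjusted p = 0.434, 0.805 and 0.576). With every probe set tested, the dimmer one gave 2.02 in KO, 1.12 in HET and -0.13 in WT (limma, adjusted p = 0.247, 0.534 and 0.95). Without colon WT 2 the shared spread was smaller, and the difference was 1.47 in KO (adjusted p = 0.0382), 0.50 in HET (adjusted p = 0.45) and 1.41 in WT (adjusted p = 0.0988). Without colon WT 1 instead, it was 1.46 in KO (adjusted p = 0.0385), 0.50 in HET and -3.47 in WT (adjusted p = 0.00138). The direction in WT thus turned on which of the WT colon arrays was kept.

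Pgc, the zymogen of pepsin C, had a colon level of 4.57 and 4.74 in KO, 4.98 and 4.68 in HET, and 4.33 and 4.60 in WT. Its stomach level was 14.25 and 14.25 in KO, 14.07 and 14.25 in HET, and 14.30 and 14.23 in WT. All colon arrays lay below the filter level, and Pgc was at least 210.8-fold lower in KO colon (limma, adjusted p = 2.81e-09), at least 198-fold in HET and at least 213.3-fold in WT.

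Pga5, a pepsinogen of the A type, had a colon level of 6.37 and 6.03 in KO, 5.95 and 6.07 in HET, and 5.99 and 6.19 in WT. Every colon array was below the filter level. The colon level was at least 42.2-fold lower than in stomach in KO, at least 87.3-fold in HET and at least 69.4-fold in WT. The stomach means behind these bounds were 11.93 in KO, 12.98 in HET and 12.65 in WT.

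Cblif encodes gastric intrinsic factor, the vitamin B12 carrier, which chief cells make in mice and parietal cells make in humans. Its level was between 4.15 and 4.87 on the 6 colon arrays and between 13.85 and 13.97 on the 6 stomach arrays. It was at least 163.6-fold lower in KO colon, at least 170.2-fold in HET and at least 166.7-fold in WT (limma, adjusted p between 8.54e-09 and 1.13e-08).

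Chia1, the acidic mammalian chitinase, which chief cells secrete in the mouse, lay between 4.08 and 5.42 in colon and between 14.03 and 14.19 in stomach. The bounds were at least 201.7-fold lower in KO, at least 190.8-fold in HET and at least 200.8-fold in WT colon. All 6 colon arrays were below the filter level.

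Lipf, which encodes gastric lipase and is a chief cell gene in humans, was below the filter level on all 12 arrays. Its level was 4.10 and 4.08 in KO, 4.11 and 4.14 in HET, and 4.07 and 5.19 in WT colon. In stomach it was 5.37 and 4.60 in KO, 4.29 and 4.32 in HET, and 4.31 and 4.18 in WT. Lipf was not tested in either tissue, and no fold is given.

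**Figure D2:**
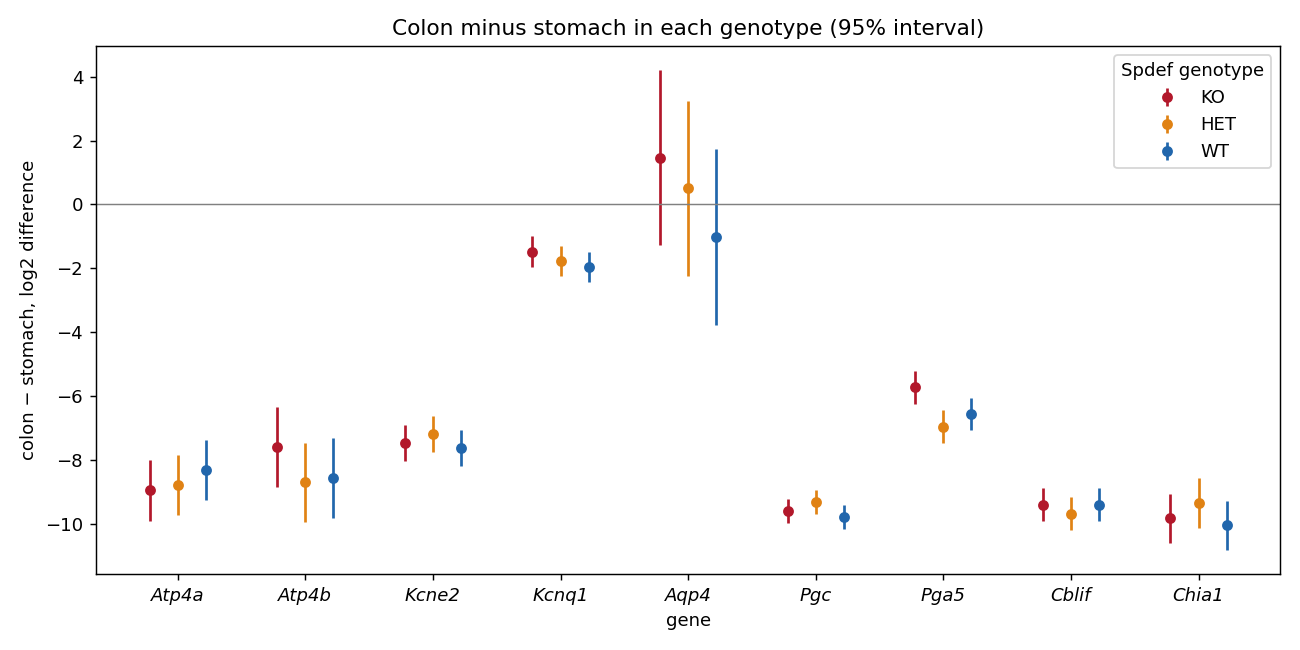
Fitted colon minus stomach log2 difference (points) with 95% intervals (bars) for the 9 tested genes in KO, HET and WT. The 8 genes other than Aqp4 lie below 0 in all genotypes, Kcnq1 at -1.47 to -1.94. For Atp4a, Atp4b, Kcne2, Pgc, Pga5, Cblif and Chia1 the colon mean was below the filter level, and the plotted fitted value is no bound.

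The KO, HET and WT stomachs were then compared, the question being whether parietal and chief cell transcripts change when Spdef is lost. None of the 9 tested genes passed the threshold in KO against WT, in KO against HET or in HET against WT (limma, adjusted p of 0.9995 or more). Of all 7858 genes, 0.0127% passed in KO against WT, 0.0127% in KO against HET and 0% in HET against WT. At an unadjusted p under 0.05 the number was 1 of the 9 genes and 280 of all genes in KO against WT, 1 and 146 in KO against HET, and 0 and 173 in HET against WT. The 1 gene was Pga5 both times.

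For the proton pump the normalized levels of the 3 genotypes overlapped. The KO minus WT log2 difference was -0.03 for Atp4a and -0.11 for Atp4b. Because the colon arrays widen the shared spread of these genes, the stomach arrays were also fitted alone, and the 95% intervals were then -0.26 to 0.21 for Atp4a and -0.32 to 0.09 for Atp4b. The Atp4a and Atp4b probe sets, like those of Pgc, Chia1 and Cblif, were among the 84 brightest of 22626 on every stomach array, where quantile normalization sets a level by its rank. Under the other processing settings with all arrays kept, the KO minus WT difference ranged from -0.15 to -0.03 for Atp4a and from -0.26 to -0.11 for Atp4b. In the deposited intensities Atp4a read 15082 and 15428 in KO, 11525 and 18552 in HET, and 17947 and 16031 in WT stomach. The HET arrays enclosed all the others, and both KO arrays lay below both WT arrays. Atp4b read 19816 and 17747 in KO, 14998 and 23751 in HET, and 24381 and 20763 in WT stomach, again with both KO arrays below both WT arrays.

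For both genes of the potassium channel both KO arrays lay below both WT arrays, for Kcne2 narrowly, at 12.45 in KO 1 against 12.47 in WT 2. Kcne2 differed by -0.45 (SE 0.25) between KO and WT, -0.17 between KO and HET and -0.28 between HET and WT. With stomach fitted alone the KO minus WT interval was -0.85 to -0.06 (limma, unadjusted p = 0.0289, adjusted p = 0.62). The lowest array was stomach KO 2, at 11.90. Without it the KO minus WT difference was -0.18 and the KO minus HET difference was 0.10. Kcnq1 differed by -0.30 (SE 0.21) between KO and WT, with an interval of -0.63 to 0.04 in stomach alone.

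For Aqp4 the KO minus WT difference in stomach was -0.17, with an interval of -0.57 to 0.23 in stomach alone. The other Aqp4 probe set gave 9.06 and 8.67 in KO, 9.24 and 9.33 in HET, and 9.53 and 8.70 in WT stomach. On both probe sets the WT arrays were further apart than the arrays of the other genotypes.

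Among the chief cell genes Pgc, Cblif and Chia1 did not pass, at levels set by rank near the array top. The KO minus WT difference was -0.02 for Pgc, -0.03 for Cblif and 0.01 for Chia1, and the intervals in stomach alone were -0.21 to 0.18, -0.22 to 0.16 and -0.18 to 0.19. Without quantile normalization these differences were -0.12, -0.16 and -0.11. In the deposited intensities Pgc read 20433 and 21590 in KO, 14750 and 24256 in HET, and 24437 and 21256 in WT stomach. The lowest of the 6 was HET 1, as it was for Atp4a, Atp4b, Cblif and Chia1.

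**Figure D3:**
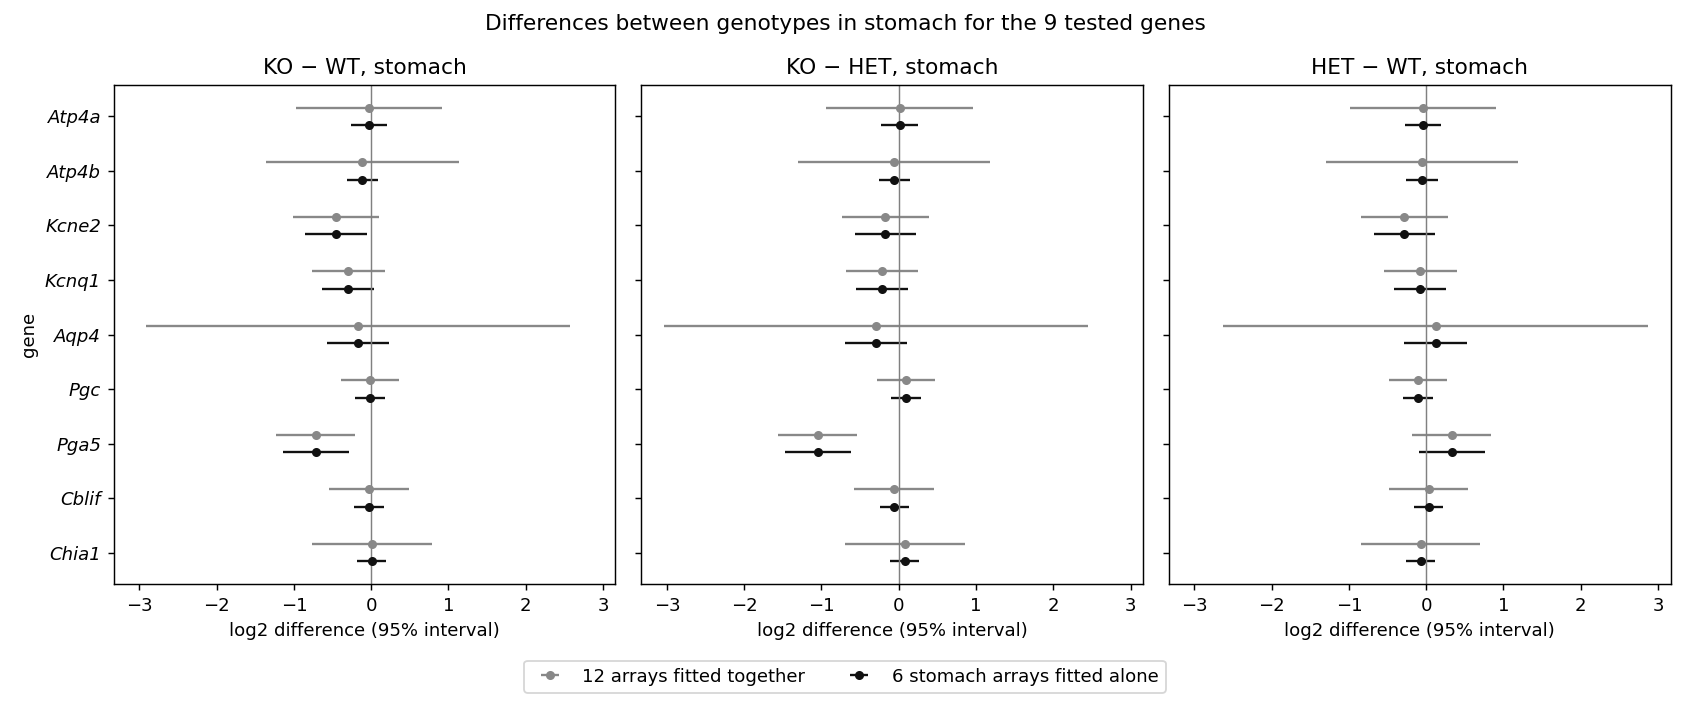
Log2 difference (points) with 95% intervals (bars) between genotypes in stomach for the 9 tested genes, from the fit of all 12 arrays (grey) and from the 6 stomach arrays alone (black). Pga5 lies at -0.72 in KO minus WT and -1.05 in KO minus HET, with both intervals below 0. The Aqp4 interval is widest with 12 arrays because its colon arrays spread from 7.71 to 13.21.

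Pga5 was the only chief cell gene whose KO stomach arrays lay below both the HET and the WT arrays. Its level was 12.18 and 11.68 in KO, 13.14 and 12.82 in HET, and 12.85 and 12.44 in WT stomach. In deposited intensities this was 4725 and 3301 in KO, 8311 and 7593 in HET, and 8007 and 5736 in WT. HET and WT overlapped, and the lower KO array was KO 2.

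The KO minus WT log2 difference of Pga5 was -0.72 (SE 0.23, limma, unadjusted p = 0.0113, adjusted p = 0.9995), and the KO minus HET difference was -1.05 (SE 0.23, unadjusted p = 0.0012, adjusted p = 0.9999). With stomach fitted alone the intervals were -1.15 to -0.29 (adjusted p = 0.405) and -1.48 to -0.62 (adjusted p = 0.419). HET minus WT was 0.33. The KO minus WT difference of Pga5 was -0.48 without stomach KO 2, the array with low Xist, and -0.96 without stomach KO 1. Without stomach KO 2 the KO minus HET difference was -0.81.

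Across the 9 genes, KO arrays lay below WT arrays without overlap for 3 (Kcne2, Kcnq1 and Pga5) and above for none. Over all genes tested, 16.7% lay below and 37.2% did not overlap in either direction, so on the normalized levels the share without overlap was near that background. In deposited intensities KO also lay below WT without overlap for Atp4a, Atp4b, Cblif and Chia1, whose normalized levels are set by rank. For Chia1 the gap was narrow, at 20538 in KO 2 against 20629 in WT 2. Pgc and Aqp4 overlapped there, and the share over all genes was not counted on that scale. On the normalized levels KO lay below HET without overlap for 4 of 9 (Kcnq1, Aqp4, Pga5 and Cblif), against 13.5% of all genes below and 32.1% in either direction. For Cblif this rests on its rank: the level was 13.90 and 13.87 in KO against 13.91 and 13.97 in HET, but its deposited intensity was 15975 and 15787 in KO and 13141 and 18999 in HET, which overlap, and without quantile normalization the KO minus HET difference was 0.0072. HET lay below WT for Kcne2 alone, against 18.5% of all genes below and 35.6% in either direction.

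Markers of other stomach regions differed between these arrays, without a call. Of 9 tested squamous forestomach genes 0 passed in KO against WT (limma, 5 of 9 at an unadjusted p under 0.05), all 9 differences were negative and the median was -3.11, against 0.01 over all genes. In KO against HET 0 of 9 passed, 8 were negative and the median was -3.23. The mean level of the 12 squamous genes on the array was 5.42 and 5.44 in KO, 9.23 and 6.39 in HET, and 7.31 and 8.24 in WT stomach, lowest on the KO arrays. Of the 12 genes, 11 were below the filter level on each KO array, 3 and 8 on the HET arrays, and 6 and 3 on the WT arrays.

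Of 6 tested gastric endocrine genes 0 passed in any stomach comparison (limma, 0 of 6 also at an unadjusted p under 0.05). One of them, Gast, the gastrin gene of antral G cells, lay at 4.14 and 4.68 in KO, 4.61 and 8.13 in HET, and 4.58 and 9.04 in WT stomach, below the filter level on both KO arrays, HET 1 and WT 1. Of 3 tested neck mucous cell genes 0 passed. Dmbt1, a mucosal scavenger receptor on that list named here after its values were seen, lay at 12.77 and 12.57 in KO, 11.15 and 11.85 in HET, and 10.27 and 10.65 in WT stomach. The genotypes did not overlap for Dmbt1, and KO minus WT was 2.21 (SE 0.61, limma, unadjusted p = 0.00511, adjusted p = 0.934). The other tested genes of that list did not follow it. Agr2 had a KO minus WT difference of -0.21, with KO below WT without overlap, and Tff2 had 0.06, with overlap.

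None of 10 surface mucous cell genes and none of 5 smooth muscle genes passed in the stomach comparisons (limma, 0 also at an unadjusted p under 0.05). The surface mucous mean was 12.77 to 12.87, but most of its genes are set by rank near the array top. Their summed deposited intensity was 124376 and 131694 in KO, 99652 and 147011 in HET, and 140179 and 135632 in WT stomach, with HET 1 lowest. The smooth muscle mean was 11.61 to 11.94. The part of any of these markers in the Pga5 values was not tested.

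**Figure D4:**
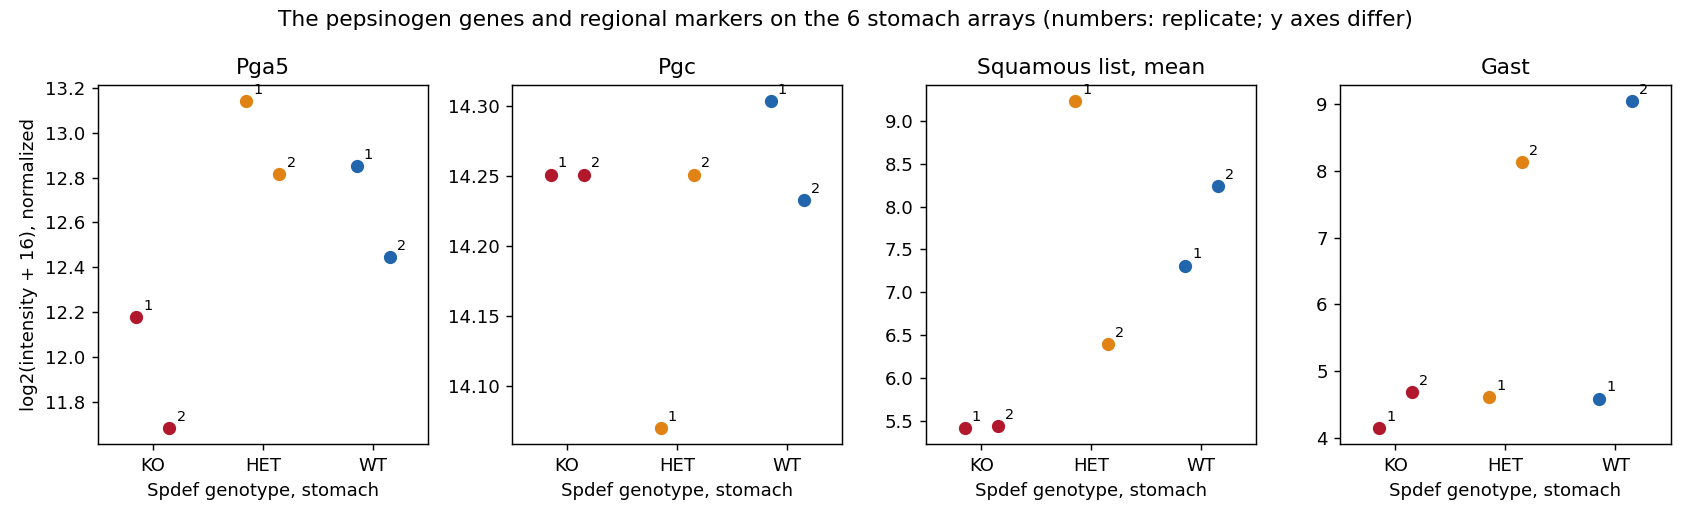
Normalized level, log2(intensity + 16), of Pga5, Pgc, the mean of 12 squamous forestomach genes and Gast on the 6 stomach arrays by Spdef genotype (numbers are replicates, axes differ). Both KO arrays are lowest for Pga5, at 12.18 and 11.68, and for the squamous mean, at 5.42 and 5.44, while Pgc lies at 14.07 to 14.30, a level set by rank. In deposited intensities Pgc spans 14750 to 24437 (1.66-fold) and Pga5 3301 to 8311 (2.52-fold).

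In colon 3 of the genes could be compared between genotypes, and none passed the threshold in any comparison (limma, 0 of 3 also at an unadjusted p under 0.05). Of all 7913 genes, 0.0505% passed in KO against WT, 0.0253% in HET against WT and 0.0253% in KO against HET. At an unadjusted p under 0.05 the numbers over all genes were 886, 761 and 325.

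Aqp4 varied most between the colon arrays. The KO minus WT log2 difference was 2.32 (SE 1.22, adjusted p = 0.483) and HET minus WT was 1.64 (limma, adjusted p = 0.634), with the arrays overlapping. Both rested on colon WT 2, at 7.71, whose deposited Aqp4 intensity was 175 against 6254 in WT 1. Without colon WT 2 the Aqp4 differences were -0.11 (adjusted p = 0.971) and -0.79 (adjusted p = 0.744). Without colon WT 1 they were 4.75 (adjusted p = 0.000899) and 4.08 (adjusted p = 0.00197).

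The second Aqp4 probe set followed the first, at 9.77 and 11.99 in KO, 9.69 and 11.11 in HET, and 11.02 and 6.95 in WT colon. Within the KO and the HET group the second array was the higher by at least 1 on both probe sets. Aqp8, a water channel of the colonocyte list chosen here after its values were seen, lay at 8.82 and 12.19 in KO, 9.07 and 12.36 in HET, and 10.66 and 5.54 in WT colon. Of the 6 colonocyte genes, Aqp8 and Slc26a3 ordered the 2 arrays of each genotype as Aqp4 did, and the other 4 did so in some genotypes only. Array 2 was higher for 3 of the 6 in KO and 4 of the 6 in HET, and WT 2 was lower for 5 of the 6. Car1, a carbonic anhydrase, was lower on array 2 in KO, at 13.50 against 13.82, and in HET, at 13.93 against 13.97. Whether the part of colon sampled differed between these arrays was not tested.

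**Figure D5:**
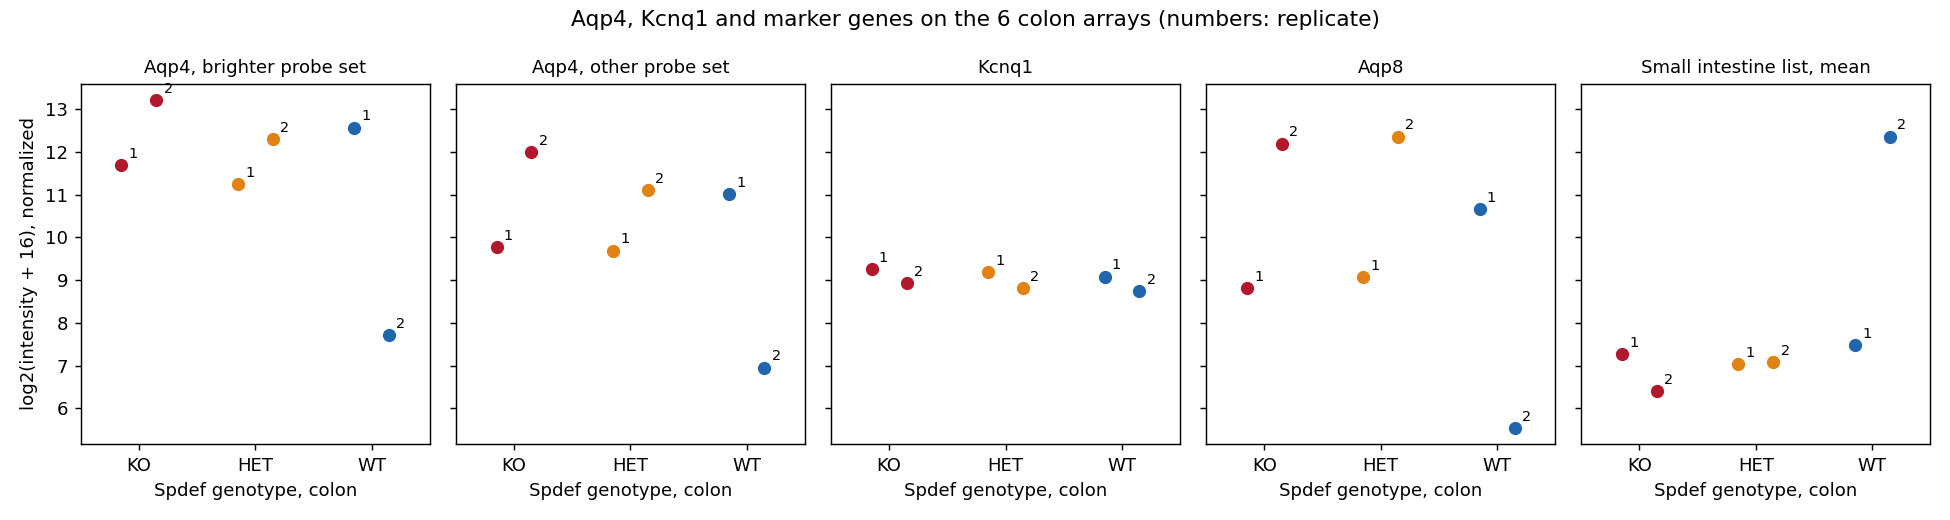
Normalized level, log2(intensity + 16), of both Aqp4 probe sets, Kcnq1, Aqp8 and the mean of 8 small intestine genes on the 6 colon arrays by Spdef genotype (numbers are replicates). Colon WT 2 is lowest for both Aqp4 probe sets and Aqp8 and highest for the small intestine mean, at 12.36, while Kcnq1 spans 8.75 to 9.26.

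Kcnq1 was even across the colon arrays, including colon WT 2 at 8.75. Its log2 difference was 0.18 between KO and WT, 0.08 between HET and WT and 0.09 between KO and HET (limma, adjusted p = 0.749, 0.898 and 0.9984). The 95% interval of the KO minus WT difference was -0.30 to 0.65.

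Atp4b lay near or below the filter level in colon, so its differences concern values close to background. Both KO arrays were above both HET arrays, with a log2 difference of 1.05 (limma, adjusted p = 0.9984). This was 1 of 3 genes without overlap, against 35.1% of all genes. KO minus WT was 0.85 (adjusted p = 0.551), and -0.23 without colon WT 2.

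The KO effect was compared between the tissues as the KO minus WT difference in colon less that in stomach. None of the 9 genes passed the threshold, against 0.0238% of 8393 genes (limma, 1 of 9 and 389 of all genes at an unadjusted p under 0.05). The 1 gene was Pga5, at 0.83 (95% interval 0.11 to 1.56, adjusted p = 0.888), whose colon arrays were all below the filter level. Aqp4 had 2.49 (SE 1.72, adjusted p = 0.888), which was 4.92 (adjusted p = 0.00608) without colon WT 1 and 0.06 (adjusted p = 0.989) without colon WT 2. Atp4b had 0.97 (limma, adjusted p = 0.888), which was 2.04 (adjusted p = 0.0125) without colon WT 1 and -0.12 without colon WT 2.

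Other genes of the same cell types were read from lists chosen with earlier results of these data known. Of 22 further parietal cell genes 16 had a probe set naming them alone and 15 were tested in stomach. In KO against WT stomach 0 of 15 passed, 8 differences were positive and 7 negative, and the median was 0.01, as it was over all genes tested. The smallest p belonged to Kcnj15, a potassium channel subunit, at 0.54 (SE 0.37), and Slc26a7, an anion exchanger, at -0.43 (SE 0.35). For both genes HET differed from WT in the same direction, by 0.58 and -0.42, but both differences use the same WT arrays and are not independent. In KO against HET 0 of 15 passed, with Ckmt1, a mitochondrial creatine kinase, at -0.22 and Hrh2, the histamine receptor that stimulates acid secretion, at -0.30.

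Of 8 further chief cell genes 5 had such a probe set and all 5 were tested in stomach, with none past the threshold between genotypes. Xbp1, a transcription factor of secretory cells, had a KO minus WT difference of 0.24, and Tnfrsf19, a receptor of gland base cells, had -0.20. In HET against WT Xbp1 had 0.10 and Nupr1, a stress-induced nuclear protein, had 0.39.

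Between the tissues 10 of the 15 parietal list genes were lower and past the threshold in KO colon, 9 in HET colon and 8 in WT colon, where 12.4%, 12% and 16.4% of all genes were. In KO colon 1 was higher, as were 10.5% of all genes. Kcnj15 was at least 9.25-fold lower in KO, at least 9.53-fold in HET and at least 6.35-fold in WT colon. Slc26a7 was at least 1.37-fold, at least 1.38-fold and at least 1.85-fold lower in KO, HET and WT colon. Among the next in size was Sstr2, a somatostatin receptor, at 6.97 and 5.72 in KO colon against 8.64 and 8.51 in KO stomach. The first of these colon values was above the filter level, so no bound is given. Cckbr, the gastrin receptor, was also lower in KO colon (limma, adjusted p = 0.00387), with both group means below the filter level. Hrh2 was at least 2.22-fold lower in HET and at least 1.85-fold lower in WT colon, and Esrrg, an estrogen-related receptor, at least 1.76-fold and at least 1.81-fold.

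Of the 5 chief list genes 4 were lower in KO colon, 3 in HET and 3 in WT, beside the same shares of all genes. Bhlha15 (Mist1), a transcription factor of chief cell maturation, differed by -2.89 in KO, -2.98 in HET and -2.89 in WT. The KO colon arrays read 6.08 and 7.97 for Bhlha15, and its KO difference was -1.95 without colon KO 1 and -3.83 without colon KO 2. Clps, the colipase gene, differed by -3.39, -2.72 and -3.52, but its stomach level of 14.37 on 5 of the 6 arrays is the top of the scale, so these sizes are not exact. Clps read 9.43 and 12.49 in KO colon, and its KO difference was -1.88 without colon KO 1 and -4.95 without colon KO 2. The Clps call was lost in KO without either stomach KO array (limma, adjusted p = 0.0709 and 0.0743), in WT without either stomach WT array (adjusted p = 0.0589 and 0.051) and in HET without any 1 of its 4 arrays (adjusted p between 0.102 and 0.163). Tnfrsf19 was at least 2.86-fold lower in KO and at least 3.28-fold lower in WT colon. In HET its stomach mean lay 3.10-fold above the filter level. That value is no lower limit, since colon HET 1 reached the filter level at 6.54. Xbp1 differed by -0.74 in KO. Clps also marks exocrine pancreas, and 9 genes of that list averaged 7.34 in colon KO 2 against 5.15 to 5.55 on the other colon arrays.

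In the colon comparisons 0 of 9 tested parietal list genes and 0 of 4 tested chief list genes passed. Ezr, the membrane linker ezrin, had -0.50 in KO against WT (limma, unadjusted p = 0.0282, adjusted p = 0.421) and -0.49 in HET against WT. Rab25, a vesicle GTPase, had 0.54 in KO against WT (limma, unadjusted p = 0.0406, adjusted p = 0.436). All 3 values turned on the WT arrays. Without colon WT 2 the KO minus WT difference was -0.19 for Ezr (adjusted p = 0.687) and 0.16 for Rab25 (adjusted p = 0.767), and HET minus WT was -0.19 for Ezr. Without colon WT 1 they were -0.79 (adjusted p = 0.0109), 0.93 (adjusted p = 0.00906) and -0.78 (adjusted p = 0.0107). Car2, a carbonic anhydrase, had 3.03 in HET against WT (limma, adjusted p = 0.517), with 13.42 and 13.28 in HET and 13.33 and 7.31 in WT colon, the low value again in WT 2. In KO against HET the smallest p belonged to Egf, a growth factor, whose KO arrays lay below the filter level at 6.36 and 5.22 against 6.99 and 7.02 in HET (limma, unadjusted p = 0.0168, adjusted p = 0.9984), followed by Ckmt1 at -0.14. Of the chief list the smallest p belonged to Nupr1 in both HET comparisons, at 1.36 in HET against WT and -1.50 in KO against HET, followed by Clps at 0.80 and -0.69. In KO against WT it belonged to Xbp1 at 0.08, followed by Nupr1 at -0.15. Nupr1 lay at 11.39 and 12.44 in KO, 13.54 and 13.30 in HET, and 13.82 and 10.31 in WT colon. Its low WT value was again in WT 2, and WT 1 lay above both HET arrays. Clps was also lower in WT 2, at 10.21 against 11.50 in WT 1, with 11.44 and 11.87 in HET.

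Likeness to the genes described above was measured as Pearson's r with the mean of the 5 chief or the 5 parietal cell genes, among 7849 other genes tested in stomach. Over all 12 arrays the 5 nearest to the chief mean were Anxa10 (r = 0.9996), Tff1, Muc5ac, Prnd and Bpifb1 (r = 0.9973). Of these, Tff1 and Muc5ac are secreted by gastric surface mucous cells. The 5 nearest to the parietal mean were Fabp3 (r = 0.9961), Bcat2, Cnn3, Acadsb and Bckdhb (r = 0.9954). Fabp3 is a fatty acid carrier, and Bcat2, Acadsb and Bckdhb encode enzymes of branched-chain amino acid breakdown in mitochondria. These values describe the gap between tissues, which all 12 points share. Over the 6 stomach arrays alone none of these 10 genes was among the 5 nearest. There the parietal mean was nearest to Rom1 (r = 0.9945), Exosc10, Polr2j, Fam114a1 and Sdf4, and the chief mean to Chd8 (r = 0.9865), Zcchc3, Mrpl57, Nxt1 and Tmem115. Within the chief mean in stomach, Pga5 and Lipf range over 1.46 and 1.19, although Lipf is below the filter level. Pgc, Cblif and Chia1 range over 0.12 to 0.23 there. The r of each gene with this mean was 0.53 for Pga5, 0.40 for Lipf, 0.64 for Cblif, 0.02 for Pgc and -0.07 for Chia1. Pga5 and Lipf had r = -0.52 with each other, so the mean follows no single gene closely. Without Lipf in the mean, a choice made after seeing the data, the nearest were Rwdd1 (r = 0.9855), Cltb, Dbt, Clybl and Gbe1, and Chd8 had r = 0.55. No likeness in stomach is therefore read for the chief cell genes. None is read for the parietal cell genes either, since the top 5 of 7849 genes over 6 arrays can reach a high r by selection alone.

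Among the genes themselves the highest r over the 6 stomach arrays was 0.98, for Aqp4 with Cblif. Next were Atp4b with Kcne2 and Pgc with Chia1, at 0.95 each. The pairs lay across cell types as well as within them, and were picked as the highest of all pairs of the 10 genes. Atp4b, Pgc, Cblif and Chia1 have levels set by rank. Stomach KO 2 was the lowest array for both Atp4b and Kcne2, at 14.02 and 11.90. Chia1 lay at 14.03 in HET 1 and between 14.18 and 14.19 on the other stomach arrays, so its r with Pgc rests on HET 1. The pepsinogens Pgc and Pga5 had r = -0.44. These are descriptions over 6 arrays that share their normalization.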

How the data were processed

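RNA from stomach and colon was hybridized to Affymetrix HT Mouse Genome 430 arrays, per the labels' protocols. The deposited values are linear intensities per probe set, scaled by the authors to a common trimmed mean. Per the submitters' processing notes, 3 arrays (both of KO stomach, and colon WT 1) were processed with RMA and the other 9 with MAS5, with versions not given in the sources used here. Of 22716 probe sets 90 controls were dropped, and of the remaining 22626, 18003 named 1 gene, 287 several and 4336 none. Symbols were updated through gene identifiers for 17977 probe sets and kept for 26.

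From these intensities log2(intensity + 16) was taken and quantile-normalized over the 12 arrays. The probe set with the highest mean stood for each gene, and genes entered the tests of a tissue if at least 2 of its 6 arrays reached the 40th percentile. Limma 3.58.1 (R 4.3.3) fitted the 6 group means with an intensity trend (6 residual and 3.29 prior degrees of freedom). Benjamini-Hochberg adjustment covered all genes tested in the tissue (in either tissue for comparisons between them), at a threshold of 0.05. Where a group mean and both its arrays lay below 6.53 (an intensity of 76.5), "at least" gives the difference from that level.

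The genes and lists were chosen with earlier results of these data known. List genes were named by rule: in each comparison up to 4 past the threshold by the size of the fitted difference, otherwise the 2 with the smallest p. Alternatives were no quantile normalization, offsets of 1 and 64, other filters, no trend, each tissue alone, every probe set, the replicate block and leaving out each array; added after seeing the data were 4 list genes without each array of their comparison, and the chief mean without Lipf. The pipeline was tested on simulated data. Precision is limited by the number of arrays. Figures were drawn with matplotlib 3.10.9 (Python 3.11.15).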

Additional observations from a re-analysis of the deposited data

How the results depend on the processing

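The number of the 10 genes past the threshold was 0 in all 3 stomach comparisons under all 21 alternatives. It moved only when colon WT 1 or, for colon minus stomach in KO, colon WT 2 was left out: from 0 to 1 in colon for KO minus WT and for HET minus WT, from 0 to 2 for the KO effect in colon less that in stomach, and from 8 to 9 for colon minus stomach in KO and in WT. It stayed at 8 in HET. Of the single-gene differences, 1419 kept direction and side of the threshold, 7 became past it (Aqp4 and Atp4b, without a WT colon array), 41 changed sign and 0 lost a call. Without quantile normalization the sign turned for Chia1 in stomach KO minus WT (-0.11), Cblif in HET minus WT (-0.17), Cblif in KO minus HET (0.0072) and Cblif in the difference of KO effects (0.13). The last was also 0.19 with offset 1 and 0.011 with offset 64, and Kcne2 in it was -0.15 with offset 1; the causes were not tested. Leaving out 1 array at a time turned further signs, with these ranges. For KO minus WT in stomach the range was -0.069 to 0.015 for Atp4a, -0.45 to 0.12 for Aqp4, -0.054 to 0.019 for Pgc and -0.088 to 0.032 for Cblif. In HET minus WT in stomach the range was -0.18 to 0.11 for Atp4a, -0.25 to 0.092 for Kcnq1, -0.16 to 0.40 for Aqp4 and -0.031 to 0.089 for Cblif. For KO minus HET in stomach the range was -0.13 to 0.15 for Atp4a, -0.15 to 0.037 for Atp4b and -0.45 to 0.10 for Kcne2. In KO minus WT in colon the range was -0.23 to 0.97 for Atp4b and -0.11 to 4.75 for Aqp4. For HET minus WT in colon the range was -1.29 to 0.18 for Atp4b, -0.11 to 0.28 for Kcnq1 and -0.79 to 4.08 for Aqp4. In KO minus HET in colon the range was -0.10 to 0.28 for Kcnq1 and -0.083 to 1.44 for Aqp4. For colon minus stomach in HET it was -0.031 to 1.03 for Aqp4. In colon minus stomach in WT it was -3.47 to 1.41 for Aqp4. For the difference of KO effects the range was -1.43 to 0.15 for Atp4a, -0.12 to 2.04 for Atp4b, -0.11 to 0.44 for Kcne2 and -0.36 to 0.36 for Cblif.

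The correlation of replicate differences between groups ran from -0.32 to 0.29. Between stomach and colon of the same genotype it was 0.07 in WT, 0.02 in HET and 0.08 in KO. Such values cannot show whether same-numbered stomach and colon arrays share a mouse. Xist was low on array 2 of both KO tissues. With the replicate block the number of these genes past the threshold was 0 in each comparison of genotypes and 8 in each comparison of tissues, as without it. Over all genes the calls in KO minus WT ranged from 0 to 9 in stomach (1 in the fit described) and from 1 to 963 in colon (4), in HET minus WT from 0 to 1068 in colon (2), in KO minus HET from 0 to 18 in stomach (1) and from 0 to 27 in colon (2), and in the difference of KO effects from 0 to 391 (2). Colon minus stomach calls ranged from 1062 to 2671 in KO (1918), 950 to 2597 in HET (1866) and 1105 to 3149 in WT (2293). Genes below the filter level, Lipf among them, have only an upper bound.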
